A study of Mus musculus with 2 samples.

Results

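Resident macrophages of the injured mouse heart were described as 516 cells of 11297 cell barcodes. They were selected on the unique molecular identifiers (UMIs, counted RNA molecules) of 4 genes: a cell was taken when Lyve1, Folr2, Cbr2 and Timd4 together gave 5 or more UMIs and C1qa, C1qb and C1qc together gave 5 or more. Before that, cells needed at least 200 genes, at most 20% of UMIs from mitochondrial genes, and less than 0.1% from the 6 neutrophil genes G0s2, Il1r2, Hdc, Mmp9, Csf3r and Cxcr2. The rule took 270 of 6140 kept cells of the sham surgery library, or 4.40% with an exact 95% binomial interval of 3.90 to 4.94%. It took 246 of 5005 kept cells of the splenectomy library, or 4.92% with an interval of 4.33 to 5.55%. The intervals overlapped. As a share of the cells with 5 or more C1q UMIs, they were 23.1% of 1168 cells (20.7 to 25.6%) and 27.1% of 908 cells (24.2 to 30.1%).

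All cells came from hearts of wild-type C57BL/6J male mice aged 8 weeks, whose left anterior descending artery had been closed for 60 min, followed by 24 h of reperfusion. One group had been given sham surgery and the other splenectomy, the removal of the spleen, and the comparison asks how immune cells of the heart differ without it. Leukocytes were pulled out with magnetic beads against their surface protein CD45 and their RNA was read in droplets, in 1 library per group. How many animals went into each library is not given here, and no uninjured heart was analysed. No test between the groups was possible, so every difference below describes these libraries, and all intervals cover counting error only.

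Macrophages that settle in the heart before birth or early in life maintain themselves largely by local division, while others are replaced from blood monocytes that carry the chemokine receptor Ccr2. The long-lived kind is known for Lyve1, a receptor for hyaluronan, Folr2, a folate receptor, and Timd4, which binds phosphatidylserine on dying cells. Such cells lie along vessels, clear dead cells and debris and, after an infarct, are partly lost while monocytes enter the tissue.

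The 270 sham resident macrophages held a median of 14751 UMIs per cell and 4380037 in all, and the 246 splenectomy cells a median of 15595 and 4286658 in all. The libraries shared 9 barcodes, none of them among these cells. A further 10 and 8 cells met the gene rule but exceeded the neutrophil limit. For comparison, 622 and 472 C1q macrophages without a single UMI of the 4 selecting genes, 1521 and 1536 monocytes, and 118 and 121 B cells were summed in the same way. B cells, whose median depth was 3659.5 and 3857 UMIs, were summed as a reference for free RNA. Their 5 richest cells held 91.3% and 84.8% of their UMIs of Spp1, Arg1, Fabp5, Gpnmb and Trem2, genes of recruited macrophages. Summed B cell levels of such genes thus rest on few cells and on shallower ones. They do not measure the free RNA of the resident macrophages, whose share was not tested.

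The label was checked against marker genes. Lyve1 is also a gene of lymphatic endothelium, but of 5 markers of those cells Flt4, Mmrn1, Ccl21a and Reln were at 0 UMIs in both libraries and Prox1 gave 5 UMIs in each. The 6 T cell markers summed to 3 and 1 UMIs, with Cd3e, Cd3g and Trac at 0. The B cell markers summed to 4.34 and 7.0 counts per 1000000 UMIs (CPM), with Pax5 at 0, and the blood endothelial markers to 34.5 and 54.8 CPM, most of it Fabp4. Fibroblast markers summed to 139 and 133 CPM, most of it Gsn, and cardiomyocyte markers to 134 and 92.6 CPM. Of the cardiomyocyte markers, Myl2 stood at 38.6 and 22.2 CPM, against 9.79 and 5.72 CPM in the C1q macrophages without the selecting genes. The source of this RNA was not tested. Markers of other myeloid cells were not absent: the 6 classical monocyte markers summed to 654 and 380 CPM and the 5 recruited macrophage markers (Spp1, Arg1, Fabp5, Gpnmb and Trem2) to 4385 and 4679 CPM. Of the latter, Spp1, Arg1 and Gpnmb were below the C1q macrophages without the selecting genes in both libraries. Fabp5 (927 and 643 against 691 and 582 CPM) and Trem2 (321 and 273 against 213 and 188 CPM) were above them. A single sham cell held 260 of the 280 UMIs of Gzma and Ccl5, genes of cytotoxic lymphocytes. A single splenectomy cell held 334 of the 388 UMIs of Rgs5, Mgp, Igfbp7, Sparc and Cald1, genes of pericytes and matrix-forming cells.

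The selecting genes were given as levels, with no comparison drawn from them. Lyve1 (chr7:110850607-110863239, mm10) stood at 372 CPM (sham) and 537 CPM (splenectomy). Folr2 (chr7:101839988-101857194) stood at 621 and 571 CPM. Cbr2, a carbonyl reductase gene (chr11:120729489-120732114), stood at 440 and 511 CPM, and Timd4 (chr11:46810800-46844332) at 53.7 and 58.3 CPM. Folr2 was found in 95.2% and 96.7% of the cells, Cbr2 in 86.3% and 87.8%, Lyve1 in 58.1% and 74.4%, and Timd4 in 35.6% and 41.5%.

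These shares depend on depth, so each cell was also thinned to 8000 UMIs, which left out 34 and 25 shallower cells. Folr2 was then found in 90.3% and 92.8% of the cells and Cbr2 in 74.6% and 76.5%. Timd4 was found in 30.9% of 236 sham cells (25.1 to 37.3%) and 29.9% of 221 splenectomy cells (23.9 to 36.4%). Lyve1 was found in 52.1% (45.5 to 58.6%) and 64.3% (57.6 to 70.6%). At 2000 UMIs, the depth that B cells allow, Timd4 was in 9.67% and 10.2% of the resident macrophages and in 0 of 111 and 0 of 114 B cells, which allows shares of up to 2.70% and 2.63%. Lyve1 was in 36.1% and 49.0% of the resident macrophages at that depth and also in 0 B cells. Without thinning, 86 of 96 sham cells with Timd4 had Lyve1, and 99 of 102 splenectomy cells. Lyve1 was in 58.1% and 74.4% of all resident macrophages. Both genes belong to the selecting sum and their detection depends on depth, so this overlap is a description. All 4 genes were found together in 80 of 270 and 98 of 246 cells.

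The promoters of the 4 selecting genes and of Cd163, a further mark of these cells, were searched for sites of macrophage factors. Of the 5 genes Lyve1, Folr2, Cbr2, Timd4 and Cd163, 4 are in the RefSeq promoter table (250 bases before to 50 after the start, GRCm38.p6), and Folr2 has 2 entries. The site TGCTGAC bound by MAF family factors, searched on both strands, lay in 2 of these 5 promoters, those of Timd4 and Cbr2, and in 4.67% of all 32851 promoters. Maf, the gene of the macrophage factor of that family, stood at 503 and 484 CPM in the resident macrophages against 160 and 137 CPM in C1q macrophages without the selecting genes. The site GAGGAAGT of the factor PU.1 was in none of the 5 and in 3.20% of all promoters. Capitals below mark the MAF site, which reads GTCAGCA on the printed strand; it starts 45 bases before the start site in Timd4 (chr11:46810549-46810848, plus strand) and 40 bases after it in Cbr2 (chr11:120731972-120732271, minus strand).
Timd4: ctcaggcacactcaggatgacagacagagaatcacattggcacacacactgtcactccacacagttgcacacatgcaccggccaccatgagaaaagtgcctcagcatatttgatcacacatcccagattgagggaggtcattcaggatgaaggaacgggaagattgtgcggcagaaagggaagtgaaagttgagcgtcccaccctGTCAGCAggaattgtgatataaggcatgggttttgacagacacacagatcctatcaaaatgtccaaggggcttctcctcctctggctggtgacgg
Cbr2: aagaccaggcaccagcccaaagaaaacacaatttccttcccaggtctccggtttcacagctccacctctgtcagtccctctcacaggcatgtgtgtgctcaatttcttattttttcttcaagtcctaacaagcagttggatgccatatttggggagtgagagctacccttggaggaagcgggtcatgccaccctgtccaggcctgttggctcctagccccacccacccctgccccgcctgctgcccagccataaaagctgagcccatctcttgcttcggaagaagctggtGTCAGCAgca

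The rule is a threshold on a gradient. Counts of the selecting genes per cell had a median of 13.5 UMIs, with quartiles at 7.25 and 30 and a highest value of 122, in the sham library, and a median of 19, with quartiles at 9 and 41 and a highest value of 201, in the splenectomy library. Just outside the threshold, at 3 or 4 UMIs, lay 74 and 45 cells, and just inside it, at 5 or 6 UMIs, lay 52 and 34. Cd163, the scavenger receptor for haemoglobin bound to haptoglobin, was at 36.4 and 111 CPM just outside and 50.6 and 86.1 CPM just inside. Spp1, the gene of osteopontin and a mark of recruited macrophages, was at 7990 and 5509 CPM just outside and 4628 and 4150 CPM just inside. Cd163 was thus higher just inside in one library and just outside in the other, while Spp1 was lower just inside in both.

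The ends of the gradient differed in both libraries. With 20 or more UMIs of the selecting genes (105 sham and 120 splenectomy cells), Cd163 reached 386 and 490 CPM, F13a1, the gene of the coagulation factor XIII A chain, 1500 and 1694 CPM, and Gas6, a ligand of receptors for dying cells, 383 and 312 CPM. In the cells with 5 to 9 UMIs (99 and 63 cells) these genes were at 135 and 125, 545 and 664, and 88.4 and 72.9 CPM. Ccr2, Spp1 and Arg1, genes of recruited cells, went the other way. Ccr2 was at 243 and 160 CPM with 5 to 9 UMIs and at 33.6 and 41.8 CPM with 20 or more, while B cells held 124 and 80.8 CPM. Spp1 was at 4572 and 4906 CPM in the lower and 603 and 850 CPM in the upper range, and Arg1, the gene of arginase 1, at 1231 and 1483 CPM and at 201 and 235 CPM. In B cells Spp1 stood at 1011 and 741 CPM and Arg1 at 447 and 268 CPM. In the upper range Ccr2 and Arg1 thus lay below their summed B cell levels in both libraries. The cells with 20 or more UMIs made up 38.9% of the sham and 48.8% of the splenectomy resident macrophages, and those with 5 to 9 UMIs 36.7% and 25.6%. These shares rest on the selecting genes and on counts that were not thinned, so no comparison between the libraries is drawn from them. The part of the spread along the gradient in the differences below was not tested.

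**Figure D1:**
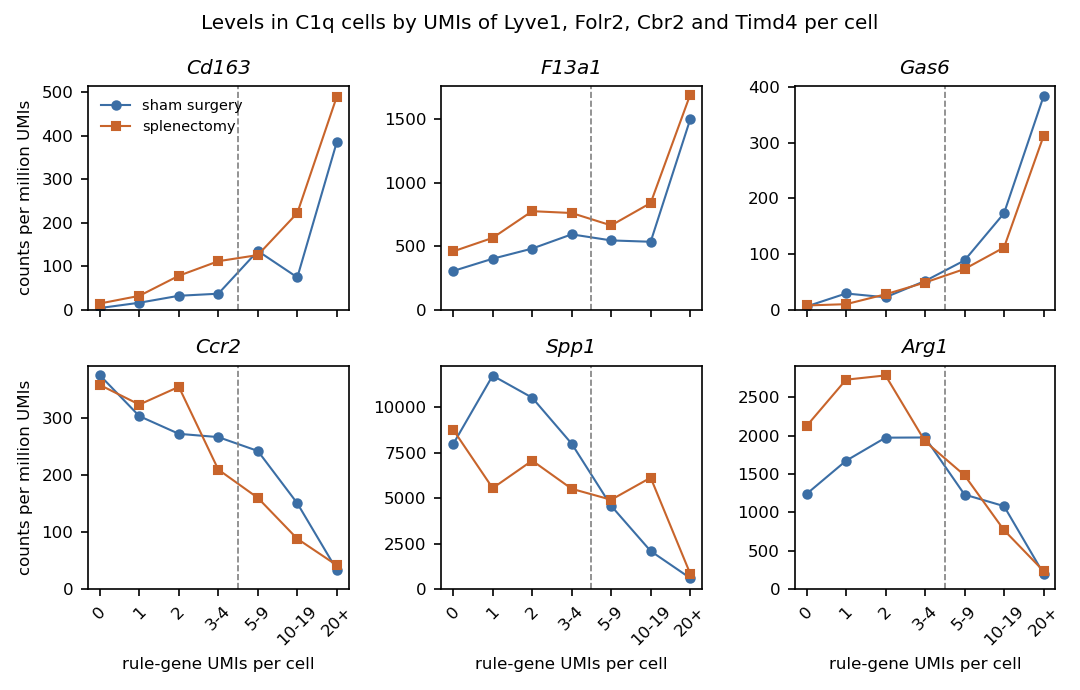
Levels (counts per 1000000 UMIs, vertical axes from 0) of 6 genes in cells with 5 or more C1q UMIs, by the UMIs of Lyve1, Folr2, Cbr2 and Timd4 per cell, in the sham surgery (circles) and splenectomy (squares) libraries, 1 library each; the dashed line is the threshold of 5 UMIs. Cd163, F13a1 and Gas6 are highest at 20 or more UMIs (Gas6 383 and 312 CPM) and Ccr2, Spp1 and Arg1 lowest there (Spp1 603 and 850 CPM).

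Outside the selecting genes, 20 genes stood furthest above the C1q macrophages without those genes in both libraries. Because the same cells were chosen by their RNA, these levels are a description. Genes for binding and taking up material were Cd163 (222 and 338 CPM against 3.34 and 13.8 CPM in the comparison macrophages), Colec12, a scavenger collectin (60.5 and 83.5 against 0.691 and 2.51), Fcna, the pattern-binding protein ficolin A (117 and 121 against 1.96 and 4.6), Gas6 (229 and 206 against 5.42 and 7.26) and Fcgrt, the neonatal Fc receptor that recycles antibody and albumin (369 and 415 against 17.4 and 18.4).

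Genes of lipid, sugar and metal handling were Pltp, the phospholipid transfer protein (320 and 314 CPM against 24.3 and 20.1), Npl, a lyase for sialic acid (90.6 and 95.4 against 4.61 and 4.6), Cp, the copper ferroxidase ceruloplasmin (24.0 and 28.0 against 1.84 and 1.40), and Sult1a1, a sulfotransferase (33.1 and 36.6 against 2.19 and 2.09). Genes of secreted signals were Ccl8, a chemokine (399 and 297 against 5.76 and 26), Igfbp4, which binds insulin-like growth factors (88.1 and 92.9 against 4.38 and 6.56), and Ccn1, a matrix-associated signal (39.3 and 42.7 against 2.88 and 0.419). In B cells Ccn1 gave 6.13 and 32.3 CPM. Membrane and cytoskeletal genes were Fxyd2, a subunit of the sodium pump (94.5 and 113 against 1.73 and 2.79), Chp2, a calcium-binding partner of sodium-proton exchangers (26.9 and 33.8 against 0.230 and 0.698), Gpr34, a receptor for lysophosphatidylserine (33.6 and 35.5 against 2.30 and 1.26), Tns1, a focal adhesion protein (46.1 and 58.8 against 4.15 and 4.05), Stard8, a GTPase-activating protein (61.4 and 75.6 against 5.19 and 5.58), and Smagp, a small membrane glycoprotein (97.0 and 93.8 against 8.76 and 6.84). The protease inhibitor genes Serpinb6a (294 and 379 against 18.0 and 21.8) and Ctla2b (153 and 131 against 13.3 and 12.4) complete the set. All 20 genes were above the comparison macrophages in both libraries.

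**Figure D2:**
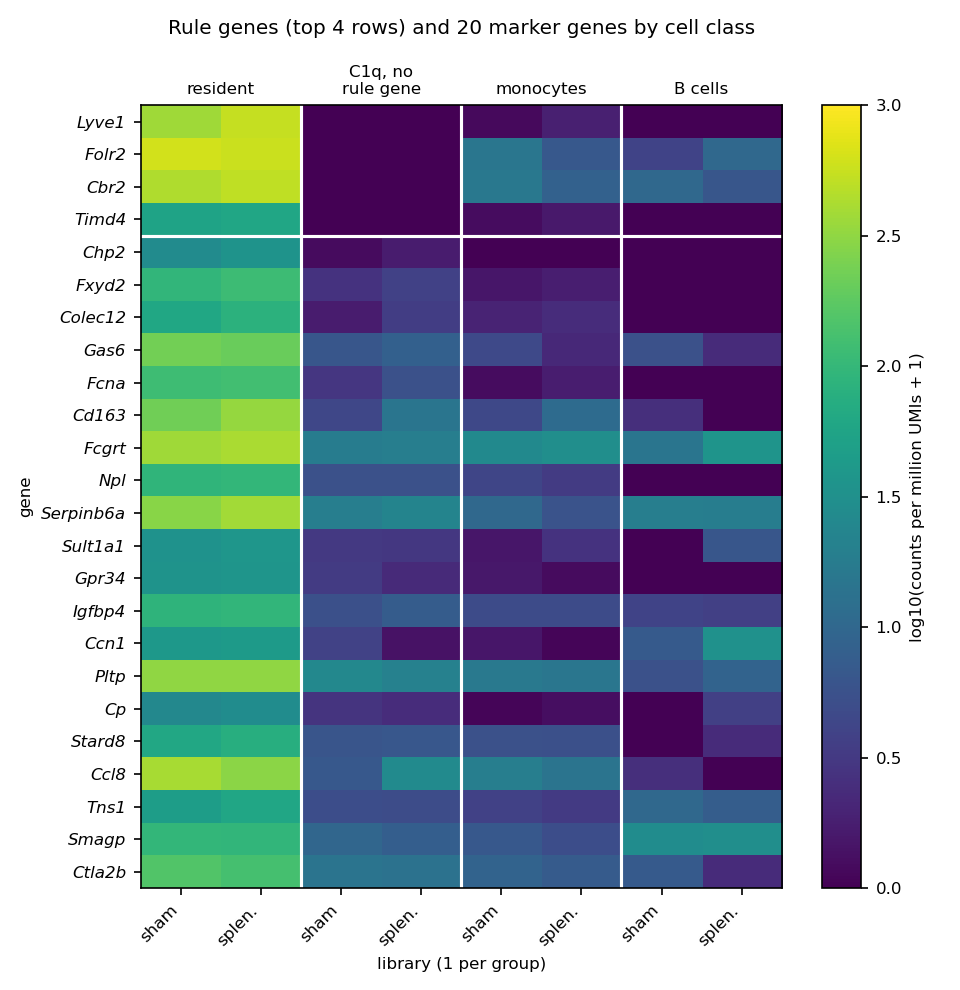
Levels as log10(CPM + 1), by colour, of the 4 selecting genes (top rows) and the 20 marker genes in resident macrophages, C1q macrophages without the selecting genes, monocytes and B cells, 1 column for each library. The genes were chosen for being above the C1q macrophages without the selecting genes; the monocyte and B cell columns, which the choice did not use, are darker than the resident columns too, as for Cd163 at 222 and 338 CPM against 1.53 and 0 CPM in B cells.

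Further genes known from resident macrophages were higher in these cells too. Mrc1, the mannose receptor, stood at 785 and 871 CPM against 159 and 159 CPM, F13a1 at 931 and 1242 against 304 and 459, and Pf4, a chemokine of platelets and macrophages, at 6155 and 6066 against 1326 and 2080. Igf1, an insulin-like growth factor, stood at 133 and 141 against 14.6 and 10.6 CPM, and Mertk, a receptor for dying cells, at 44.1 and 49.5 against 15.4 and 14.4. Genes of inflammation were lower: Il1b, the cytokine interleukin 1 beta, stood at 778 and 1181 CPM against 3984 and 5532, and Ccr2 at 135 and 81.4 against 376 and 359. The chemokine Cxcl2 was high in both, at 11030 and 13846 CPM against 15010 and 20333.

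Timd4 divided the cells further. Cells thinned to 8000 UMIs were split into those with and without a Timd4 UMI, 73 and 163 in the sham library and 66 and 155 in the splenectomy library. With Timd4, Ccr2 stood at 10.3 and 11.4 CPM (6 UMIs in each library), against 167 and 84.7 CPM without it. Spp1 stood at 128 and 377 CPM with Timd4 and at 2653 and 2511 CPM without it, and Ly6c2, a surface antigen of classical monocytes, at 1.71 and 7.58 CPM (1 and 4 UMIs) against 95.1 and 22.6 CPM. Both libraries thus showed Ccr2, Spp1 and Ly6c2 mainly in the cells without Timd4. Vsig4, a complement receptor, stood at 228 and 222 CPM with Timd4 against 29.9 and 48.4 without it, and Maf at 724 and 742 against 408 and 411. Pf4 went the other way, at 4365 and 4080 CPM with Timd4 and 6607 and 6522 CPM without it. The Timd4 UMIs also belong to the selecting count, so this split follows the gradient above and is a description.

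The genes of MHC class II, which present peptides to helper T cells, varied widely from cell to cell. Per cell thinned to 8000 UMIs, H2-Aa, H2-Ab1, H2-Eb1 and Cd74 together gave medians of 3 (sham) and 2 (splenectomy) UMIs, with 90th percentiles at 98.5 and 61 and highest values of 441 and 324. They gave no UMI in 58 of 236 and 62 of 221 cells. Ranked by these UMIs, the highest group of cells held H2-Aa at 1642 and 1164 CPM and Cd74 at 6024 and 4970 CPM, while the middle group held H2-Aa at 36.4 and 25.3 CPM. Timd4 was present along this range, at 46.5 and 46.2 CPM in the lowest group and 91.8 and 74.3 CPM in the highest. The highest group had less Spp1, at 478 and 703 CPM against 3087 and 2361 CPM in the lowest. Resident macrophages with many and with few class II UMIs were thus found in both libraries.

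The sham and splenectomy libraries were then compared over all genes. Of 6937 genes with 50 or more counts in the higher library, 41 (0.591%) were at least 2-fold higher in the splenectomy library and 60 (0.865%) at least 2-fold lower. With a limit of 20 counts 9034 genes were left, of which 487 (5.39%) had a ratio of 1.5-fold or more upward and 469 (5.19%) downward. The median log2 ratio over these genes was -0.0028. Among 17 gene lists, the interferon-stimulated genes were furthest below that median and the genes of cell division furthest above it. The lists were drawn up with results of these data known, so their counts describe the cells and are not separate evidence.

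**Figure D3:**
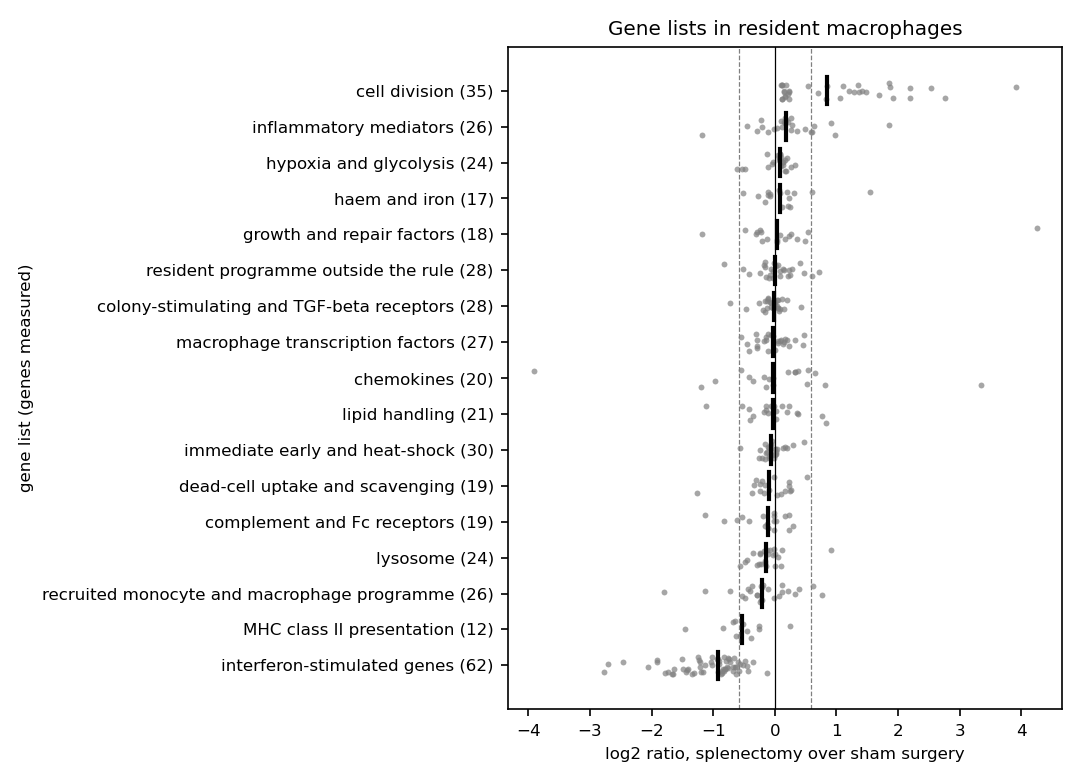
Log2 ratios, splenectomy over sham surgery, of the genes of 17 lists in resident macrophages with 20 or more counts in the higher library (1 point per gene, number of genes in brackets), with the median as a bar and dashed lines at 1.5-fold. The 62 interferon-stimulated genes all lie below 0 with a median of -0.91, and the bars of most other lists lie close to 0.

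Interferon-stimulated genes, which cells switch on in response to interferons and nucleic acid sensing, were lower in the splenectomy library. Of 66 listed genes 62 had 20 or more counts in the higher library; all 62 had a ratio below 0, 55 were at least 1.5-fold lower and none 1.5-fold higher, against 5.19% and 5.39% of all genes. The median log2 ratio was -0.91. In 59 genes with 20 counts in both libraries it was also -0.91, with 52 at least 1.5-fold lower, against 3.55% of all genes counted that way. Per cell, these genes took a median of 120 UMIs per 10000 in the sham library (10th to 90th percentile 50.4 to 222) and 70.6 in the splenectomy library (23.5 to 161). The distributions overlapped, and the 10th percentile, the median and the 90th percentile were each lower after splenectomy. The markers of classical monocytes, at 654 and 380 CPM, moved the same way in these cells, and their part in this difference was not tested.

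Ifit3, whose protein is part of an antiviral complex, had the most counts among the 12 genes with the lowest ratios. Its level was 116 CPM (508 counts) after sham surgery and 21 CPM (90 counts) after splenectomy, which makes a log2 ratio of -2.47 (-2.81 to -2.14). The related Ifit2, at 27.4 and 4.20 CPM, gave -2.71 (-3.51 to -1.98), and Ifit1, at 61.0 and 14.7 CPM, gave -2.05 (-2.47 to -1.65). Cmpk2, a nucleotide kinase gene, stood at 25.3 and 3.73 CPM, with 30.6% of its sham counts in 1 cell. Usp18, which removes the ubiquitin-like protein ISG15 and damps interferon signalling, stood at 40.2 and 11.7 CPM, a ratio of -1.78 (-2.27 to -1.32). Gbp2, a guanylate-binding protein, stood at 31.3 and 9.80 CPM, a ratio of -1.67. The neighbouring genes Ifi206, Ifi208 and Ifi213 of the DNA-sensor family gave -1.65, -2.01 and -1.64, but they are near copies of each other, and how reads were divided among them is uncertain. Cxcl10, an interferon-induced chemokine that draws T cells, stood at 361 and 157 CPM, a ratio of -1.20 (-1.33 to -1.07); its 5 richest cells held 69.7% and 64.0% of its counts, and without cells holding 2 or more UMIs of endothelial, B, T or NK markers the ratio was -0.47. Ifit2 gave -4.18 in cells with 20 or more UMIs of the selecting genes, and Gbp2 and Ifi213 gave -2.34 and -2.63 when cells were thinned before they were chosen. Some listed genes differed little: Ifi207 stood at 497 and 453 CPM, Gbp7 at 44.3 and 32.7 CPM and Oas1g at 17.6 and 13.8 CPM.

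The lower level was found along the gradient of the selecting genes. The median log2 ratio of the list was -0.63 in cells with 5 to 9 UMIs, -1.06 with 10 to 19 and -1.06 with 20 or more, where the medians of all genes were -0.08, -0.01 and 0.02. Ifit3 stood at 115 and 12.1 CPM in the cells with 20 or more UMIs, a ratio of -3.25 (-3.89 to -2.67), and at 137 and 39.8 CPM in those with 5 to 9. In cells with a Timd4 UMI the list median was -1.01 and in those without it -0.84. The difference was thus present in each range and on both sides of the Timd4 split.

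Other myeloid cells of the same libraries showed a similar list median. It was -0.89 in the C1q macrophages without the selecting genes (50 of 62 genes 1.5-fold lower, against 5.96% of all genes in those cells) and -0.87 in monocytes (52 of 65, against 6.47%). Per cell, the list took 94.3 and 31.4 UMIs per 10000 in those macrophages and 104 and 43.1 in monocytes, so after splenectomy the resident macrophages held more of it than either. B cells held 33.2 and 30.1 UMIs per 10000. The IFIT genes differed more in the resident cells: Ifit3 gave -2.47 there, against -0.59 (-0.94 to -0.25) in the C1q macrophages without the selecting genes and -0.92 in monocytes, and Ifit2 gave 0.23 (-0.27 to 0.74) in those macrophages. In the sham library Ifit3 was higher in the resident macrophages (116 CPM) than in the comparison macrophages (22.9 CPM), and in the splenectomy library the levels were 21 and 15.2 CPM. No test of these differences between cell classes was possible.

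**Figure D4:**
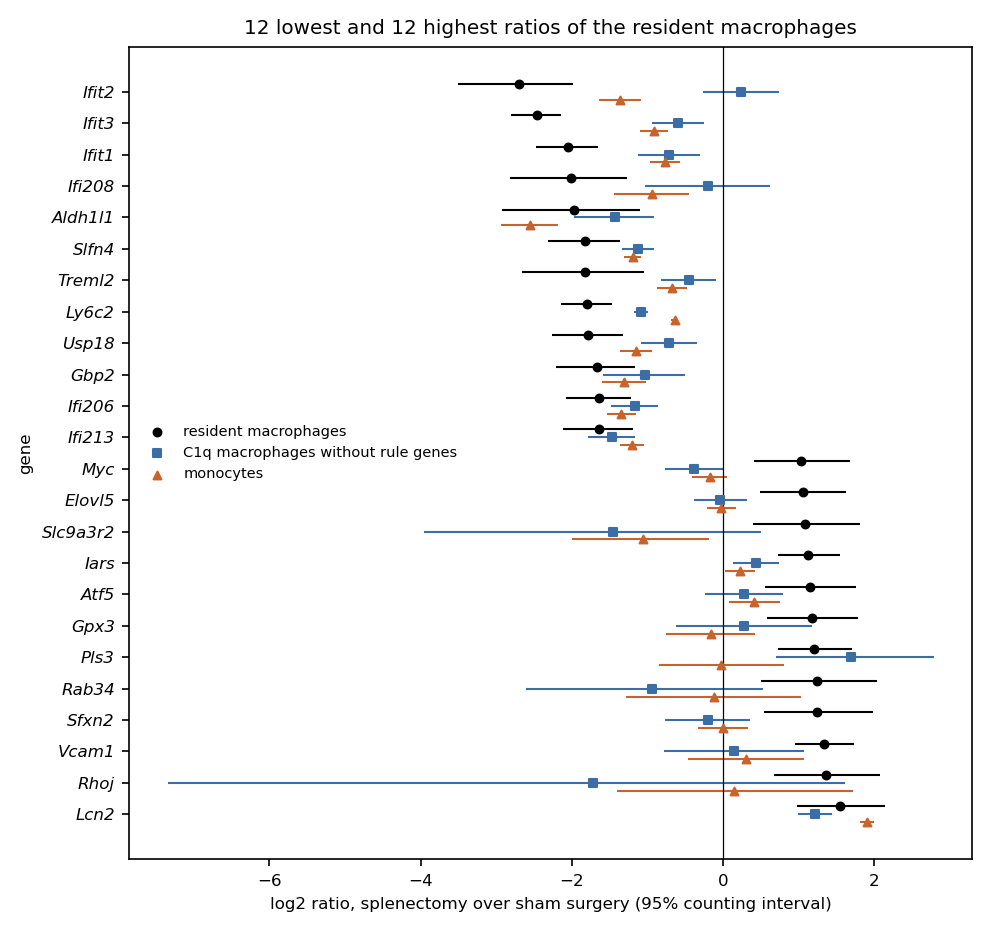
Log2 ratios, splenectomy over sham surgery, of the 12 lowest and 12 highest named genes of the resident macrophages (circles), with the same genes in C1q macrophages without the selecting genes (squares) and monocytes (triangles); lines are exact 95% intervals for counting error. Ifit3 lies at -2.47 in the resident macrophages, -0.59 in C1q macrophages without the selecting genes and -0.92 in monocytes. The genes were picked by their ratios in the resident macrophages, which favours weaker ratios in the other cells.

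Promoters of these lower genes are shown because they hold the core of the interferon response element, which is GAAA, any 2 bases and GAAA again, searched on both strands. Of the 12 genes with the lowest ratios, 10 are in the RefSeq table with 12 promoters, and 6 promoters hold the core, against 3.44% of all 32851 promoters. These are the promoters of Ifit3, Ifit1, Gbp2, Ifi206, Ifi208 and Ifi213. The last 3 share runs of 135 to 182 identical bases and are not separate instances, so 1 of them is printed. Ifit3 (chr19:34583279-34583578, plus strand) holds 2 cores, which start 156 and 122 bases before the start site. Ifit1 (chr19:34640639-34640938, plus strand) also holds 2, next to a MAF site that is in capitals too. In Gbp2 (chr3:142620413-142620712, plus strand) the core starts 59 bases before the start site and in Ifi208 (chr1:173673415-173673714, plus strand) 58 bases before it.
Ifit3: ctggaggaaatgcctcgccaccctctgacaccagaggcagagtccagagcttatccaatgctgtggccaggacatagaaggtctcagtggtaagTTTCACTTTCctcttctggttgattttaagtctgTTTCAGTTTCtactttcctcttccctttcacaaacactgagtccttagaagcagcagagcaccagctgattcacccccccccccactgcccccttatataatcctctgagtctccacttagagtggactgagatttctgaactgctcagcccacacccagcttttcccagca
Ifit1: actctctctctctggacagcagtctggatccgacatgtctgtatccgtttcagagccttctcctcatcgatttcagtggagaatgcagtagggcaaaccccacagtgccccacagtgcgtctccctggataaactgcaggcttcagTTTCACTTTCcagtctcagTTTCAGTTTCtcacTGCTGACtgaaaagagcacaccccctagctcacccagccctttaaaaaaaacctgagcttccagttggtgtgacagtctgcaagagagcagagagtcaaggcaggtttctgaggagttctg
Gbp2: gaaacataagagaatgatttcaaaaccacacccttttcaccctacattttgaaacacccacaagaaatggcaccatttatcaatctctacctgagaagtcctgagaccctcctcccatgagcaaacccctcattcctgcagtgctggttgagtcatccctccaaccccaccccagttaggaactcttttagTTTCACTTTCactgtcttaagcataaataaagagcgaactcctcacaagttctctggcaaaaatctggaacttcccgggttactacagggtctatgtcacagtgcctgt
Ifi208: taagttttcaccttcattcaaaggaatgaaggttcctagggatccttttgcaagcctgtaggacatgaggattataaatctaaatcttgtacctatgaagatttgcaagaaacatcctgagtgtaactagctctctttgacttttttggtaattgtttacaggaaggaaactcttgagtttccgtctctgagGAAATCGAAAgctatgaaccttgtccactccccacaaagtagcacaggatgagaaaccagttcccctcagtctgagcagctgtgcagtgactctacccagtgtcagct
The core was not found in the 300 bases of the Ifit2, Slfn4, Aldh1l1 and Ly6c2 promoters.

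The remaining genes among the 12 lowest are not on the interferon-stimulated list, which does not show whether interferons act on them. Slfn4, a myeloid gene of the Schlafen family, stood at 39.7 and 11.2 CPM, a ratio of -1.83 (-2.32 to -1.36), and was also lower in the comparison macrophages (-1.12). Aldh1l1, an enzyme of folate metabolism, stood at 12.8 and 3.27 CPM, a ratio of -1.97 (-2.93 to -1.10), with -1.43 in the comparison macrophages and -2.56 in monocytes. Treml2, a receptor of the TREM family, stood at 14.8 and 4.20 CPM. Ly6c2 stood at 76.5 and 21.9 CPM, a ratio of -1.80 (-2.15 to -1.47), and it was lower at each range of the gradient, with -1.12, -2.73 and -1.98 from the lowest range to the highest. B cells held more Ly6c2 (98.0 and 75.4 CPM) and Treml2 (41.3 and 29.6 CPM) than the resident macrophages, and Slfn4 stood at 24.5 and 25.6 CPM in B cells. The part of free RNA in these levels was not tested. Slfn4 gave -0.84 (-1.86 to 0.14) in cells with 20 or more UMIs, and Treml2 and Ly6c2 gave -0.86 and -0.69 when cells were thinned before they were chosen.

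Genes of MHC class II presentation were lower, in part. Of 16 listed genes 12 were measured, with a median log2 ratio of -0.53. At least 1.5-fold lower were 5 (41.7%, against 5.19% of all genes), and none was 1.5-fold higher. In 11 class II genes with 20 counts in both libraries 4 were lower, against 3.55% of all genes counted that way, and the median was -0.51. H2-Aa stood at 442 and 300 CPM (-0.56, interval -0.66 to -0.46), H2-Ab1 at 498 and 312 CPM (-0.68), and Cd74, the invariant chain, at 1796 and 1264 CPM (-0.51). H2-DMa and H2-DMb1, which load peptides, stood at 102 and 65.1 CPM and 78.1 and 43.9 CPM. Cd86, a costimulatory ligand, stood at 147 and 174 CPM (0.24). In the comparison macrophages none of 13 measured genes was 1.5-fold lower, with a median of -0.16, and in monocytes it was -0.15. By range, H2-Aa gave -0.15 (-0.33 to 0.02) in cells with 5 to 9 UMIs, -1.71 with 10 to 19 and -0.33 with 20 or more. The size of the difference thus varied with the range.

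**Figure D5:**
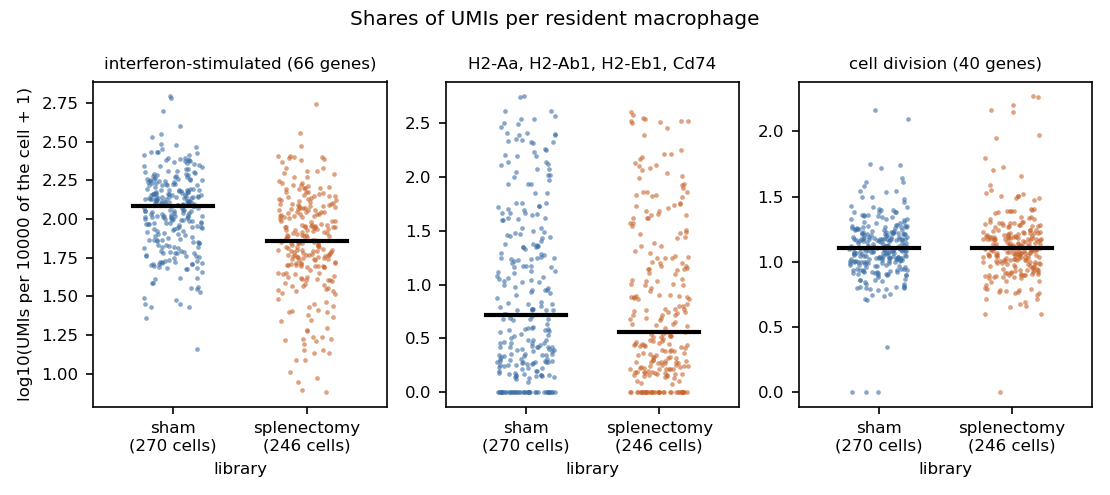
UMIs per 10000 of the cell, as log10(value + 1), of the interferon-stimulated list, of H2-Aa, H2-Ab1, H2-Eb1 and Cd74 together, and of the cell division list in each resident macrophage (1 point per cell, 270 sham and 246 splenectomy cells), with the median as a bar. Medians were 120 and 70.6 for the interferon-stimulated list, 4.24 and 2.62 for the class II genes, and 11.7 and 11.7 for the division list.

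Complement and Fc receptor genes mostly lay close to 0. Of 19 genes 3 were at least 1.5-fold lower (15.8%, against 5.19% of all genes) and none higher, with a median of -0.11. The lower ones were Cfb, complement factor B (50.2 and 22.9 CPM, -1.14, interval -1.49 to -0.79), Fcgr4 (52.3 and 29.6 CPM) and Fcgr1 (306 and 201 CPM), both activating receptors for antibody. Cfb was also lower in the comparison macrophages, at -1.22. Vsig4 changed sign when only cells with 20 or more UMIs were taken. Vsig4 stood at 73.1 and 85.6 CPM. In the 24 lysosomal genes, 1 was 1.5-fold higher (4.17%, against 5.39% of all genes) and none lower (against 5.19%), and the median was -0.14. In 23 of them with 20 counts in both libraries none was 1.5-fold higher or lower. The proteases Ctsd and Ctss stood at 1416 and 955 CPM and at 1339 and 980 CPM, and the galactosidase Gla at 85.2 and 60.9 CPM.

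Inflammatory mediators leaned the other way. Of 30 listed genes 26 were measured, at a median of 0.18. Of these 5 lay 1.5-fold or more above (19.2%, against 5.39% of all genes) and 1 below (3.85%, against 5.19%). In 25 mediators with 20 counts in both libraries 4 were higher and 1 lower, against 3.20% and 3.55% of all genes counted that way. Il1b stood at 778 and 1181 CPM (0.60, interval 0.54 to 0.66), Il1a, its relative, at 103 and 192 CPM (0.91, interval 0.74 to 1.08), and Tnfsf9, a ligand of the TNF family, at 181 and 280 CPM. Il6, the acute-phase cytokine, stood at 16.7 and 60.0 CPM, a ratio of 1.85 (1.47 to 2.24), but 58.8% of its splenectomy counts and 71.2% of its sham counts lay in 5 cells. Thinned to 8000 UMIs, Il6 was found in 6.78% (3.92 to 10.8%) and 10.9% (7.08 to 15.7%) of the cells, and these intervals overlapped. In the cells with 5 to 9 UMIs 1 of 24 genes was 1.5-fold higher (4.17%, against 4.07% of all genes there). In that range 3 were lower (12.5%, against 10.3%), so both shares were near those of all genes, and the list median was -0.0035. The list medians were 0.38 with 10 to 19 UMIs and 0.36 with 20 or more. Il1b gave 0.38, 1.5 and 0.89 in these ranges, and B cells held it at 940 and 1673 CPM, above the resident macrophages. With 10 or more UMIs of the selecting genes Il1a gave 1.66 and Il6 3.31. In the comparison macrophages 10 of 28 mediators were 1.5-fold higher, against 4.18% of all genes there, with a median of 0.41, and in monocytes 12 of 29, against 3.73%, with a median of 0.44.

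Among chemokines, which call other leukocytes, 20 of 24 genes were measured, at a median of -0.02. Of these 3 lay 1.5-fold or more above and 3 below (15% each, against 5.39% and 5.19% of all genes). In 17 chemokines with 20 counts in both libraries 2 were higher and 1 lower, against 3.20% and 3.55% of all genes counted that way. The neutrophil attractants Cxcl2 and Cxcl1 stood at 11030 and 13846 CPM (0.33) and at 546 and 790 CPM (0.53, interval 0.46 to 0.61). Ppbp, a platelet chemokine, stood at 79.0 and 138 CPM, with 39.3% of its sham counts in 1 cell, and Cxcl14 at 49.3 and 77.7 CPM. Ccl12, an attractant of monocytes, stood at 1851 and 1272 CPM (-0.54, interval -0.59 to -0.49). Ccl8 stood at 399 and 297 CPM (-0.43, interval -0.53 to -0.32); it was lower with 5 to 9 UMIs (-1.70) and with 20 or more (-0.94) but higher with 10 to 19 (1.21). Ccl24, an eosinophil attractant, stood at 304 and 436 CPM (0.52), while the comparison macrophages held 81.5 and 746 CPM. Ccl5 stood at 42.2 and 2.80 CPM, but 91.4% of its sham counts came from the single cell with Gzma. Without that cell and 1 of the splenectomy library Ccl5 gave -0.39. Ppbp gave 0.06 with 10 or more UMIs of the selecting genes, and Ccl24 gave 1.13 without cells holding markers of other types. In the comparison macrophages 9 of 21 chemokines were 1.5-fold higher, against 4.18% of all genes there, with a median of 0.44.

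Genes of cell division were higher, and a few cells carried them. Of 40 listed genes 22 had 20 counts in both libraries; 7 were at least 1.5-fold higher, against 3.20% of all genes so counted, and none lower, with a median of 0.22. Another 13 genes reached 20 counts in the splenectomy library only. With them the median was 0.85, and without the 5 cells of each library richest in these UMIs it was 0.23. Mki67, a mark of dividing cells, stood at 21 and 43.9 CPM, a ratio of 1.06 (0.69 to 1.44), with 65.2% and 65.4% of its counts in 5 cells. Ube2c, Cenpe and Cenpf, genes of mitosis, stood at 5.48 and 37.1, 2.05 and 11.9, and 0.913 and 13.8 CPM, and 5 cells held 98.1% of the splenectomy counts of Ube2c. Without the 5 cells of each library richest in division UMIs their log2 ratios were 0.03, 0.88 and 0.44. H2afz and Mcm3, a histone and a replication helicase gene, differed little, at 498 and 533 CPM and 38.6 and 41.8 CPM. At least 5 UMIs of Mki67 and Top2a together were found in 5 sham and 9 splenectomy cells. The median resident macrophage held 11.7 UMIs per 10000 of the list in both libraries.

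The resident programme outside the selecting genes had a median close to 0. Of 30 genes 28 were measured, with a median of 0.0031. Of these 2 were 1.5-fold higher (7.14%, against 5.39% of all genes) and 1 lower (3.57%, against 5.19%). In thinned cells without a Timd4 UMI the median was 0.24, with 7 of 25 genes 1.5-fold higher (28%, against 6.63% of all genes there). In thinned cells with a Timd4 UMI it was -0.07, with 0 of 24 higher. Cd163 was higher, at 222 and 338 CPM (0.61, interval 0.49 to 0.73), and so was F13a1, at 931 and 1242 CPM (0.41). In the cells with 20 or more UMIs, Cd163 gave 0.35 (0.21 to 0.49) and F13a1 0.18 (0.10 to 0.25). Gas6 (229 and 206 CPM, -0.15), Mrc1 (785 and 871 CPM, 0.15), Pf4 (-0.02), Maf (-0.06), Mertk (0.17) and Igf1 (0.09) lay close to 0. Ltc4s, an enzyme of leukotriene synthesis, stood at 204 and 282 CPM, and Fcrls, an Fc receptor-like gene, at 184 and 156 CPM. Of the haem and iron genes, Hmox1, which breaks haem down, stood at 1079 and 1242 CPM (0.20), and Slc40a1, the iron exporter, at 15.3 and 10.7 CPM (-0.51, interval -1.09 to 0.05). In the cells with 20 or more UMIs Hmox1 and Thbs1 changed sign, and Slc40a1 gave -1.79. Of 23 genes of dead-cell uptake and scavenging 19 were measured, with a median of -0.10, and 1 was 1.5-fold lower (5.26%, against 5.19% of all genes). In 18 such genes with 20 counts in both libraries none was 1.5-fold higher or lower. Msr1, a scavenger receptor, stood at 269 and 318 CPM and Thbs1, thrombospondin 1, at 633 and 489 CPM.

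Genes of recruited monocytes and macrophages depended on where the line was drawn. Of 27 listed genes 26 were measured, 2 were 1.5-fold higher (7.69%, against 5.39% of all genes) and 3 lower (11.5%, against 5.19%). The median was -0.21, but among cells with 20 or more UMIs it was 0.24. Ccr2 stood at 135 and 81.4 CPM (-0.73, interval -0.93 to -0.54) in all resident macrophages and at 33.6 and 41.8 CPM (0.31, interval -0.17 to 0.81) in those with 20 or more UMIs. Arg1 stood at 775 and 663 CPM (-0.23) and in the upper range at 201 and 235 CPM (0.23). Plac8, a gene of classical monocytes, stood at 221 and 101 CPM (-1.14, interval -1.30 to -0.97), and at -0.27 when cells were thinned before they were chosen. B cells held 708 and 636 CPM of Plac8. In the splenectomy library that was more than in the C1q macrophages without the selecting genes (463 CPM), so it is not read as free RNA. Ccr2 in all resident macrophages was close to its level in B cells, 124 and 80.8 CPM. Spp1 stood at 2349 and 3091 CPM (0.40), but 5 cells held 57.9% of its splenectomy counts, and with every cell weighted equally the ratio was 0.01. Without cells holding 2 or more UMIs of endothelial, B, T or NK markers it was -0.39, and with 10 or more UMIs of the selecting genes 1.12. Cd9 and Clec4n, a tetraspanin and a lectin, stood at 174 and 295 CPM (0.77) and 138 and 213 CPM (0.62), and Cd9 gave 1.67 in cells with 20 or more UMIs.

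Transcription factors and receptors differed little. For the counts in this paragraph, 5.39% of all genes were 1.5-fold higher and 5.19% lower. The single lower genes of the receptor and hypoxia lists make up 3.57% and 4.17% of those lists. None of 27 measured macrophage transcription factors was 1.5-fold different, with a median of -0.02; Id3 stood at 62.8 and 86.5 CPM (0.46), Tfec at 19.6 and 27.3 CPM, Zeb2 at 403 and 472 CPM and Id2 at 317 and 232 CPM (-0.45). Of 28 colony-stimulating and TGF-beta receptors and related receptors 1 was lower and none higher; Cx3cr1, the fractalkine receptor, stood at 30.1 and 40.6 CPM (with the opposite sign in cells with 20 or more UMIs) and Tgfbr1 at 39.7 and 45.5 CPM. None of 30 immediate early and heat-shock genes was 1.5-fold different, with Jund at 1007 and 1233 CPM, Hspa1a at 301 and 416 CPM and Hsph1 at 62.6 and 42.2 CPM. Of 24 genes of hypoxia and glycolysis 1 was lower, Hk3, a hexokinase, at 43.4 and 28.5 CPM; Bnip3, a mitophagy receptor, stood at 31.7 and 21.9 CPM and Eno1, an enolase, at 348 and 419 CPM.

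Few growth factors and lipid genes passed 1.5-fold. Of 22 growth and repair factors 18 were measured, with a median of 0.03. Of these 1 was higher and 1 lower (5.56% each, against 5.39% and 5.19% of all genes). The higher one, Ereg, stood at 1.37 and 26.1 CPM, but 77 of its 112 splenectomy counts came from 1 cell. Pdgfa and Pdgfb, platelet-derived growth factors, stood at 28.8 and 41.8 CPM (0.54) and 33.6 and 47.4 CPM (0.50), and Vegfa, a growth factor of vessels, at 31.5 and 22.6 CPM (-0.48). Among 21 measured genes of lipid handling, Lpl, the lipoprotein lipase, stood at 221 and 377 CPM (0.77, interval 0.66 to 0.89). Apoc2, the activator of that lipase, stood at 153 and 70.2 CPM (-1.12, interval -1.32 to -0.92), and Fabp5, a fatty acid carrier, at 927 and 643 CPM (-0.53). Vegfa and Apoc2 changed sign when cells were thinned before they were chosen. Ereg gave -0.27 there, the same value as Plac8. Equal counts in the libraries, or counts set to 3, would give such a shared value, so no change of direction is read from it. In cells with 20 or more UMIs Fabp5 gave -3.41 and Pdgfa 1.18.

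Of the 12 genes with the highest ratios, Lcn2 is on one of the 17 lists, that of haem and iron. Vcam1, an adhesion molecule for leukocytes, stood at 18.5 and 46.7 CPM, a ratio of 1.34 (0.96 to 1.73), and in the comparison macrophages at 2.65 and 2.93 CPM. Thinned to 8000 UMIs, Vcam1 was found in 6.36% (3.60 to 10.3%) and 13.6% (9.35 to 18.8%) of the resident macrophages. Lcn2, the iron-binding lipocalin 2, stood at 7.99 and 23.3 CPM, a ratio of 1.55 (0.98 to 2.14); it is abundant in neutrophils and was higher in the comparison macrophages (1.21) and in monocytes (1.90) as well. The 11 neutrophil markers summed to 359 and 432 CPM in the resident macrophages, and their part was not tested. B cells held Lcn2 at 32.2 and 13.5 CPM, and its ratio ranged from 0.75 with 3 or more UMIs of the selecting genes to 4.24 with 20 or more. With 20 or more UMIs Vcam1 gave 0.62, Rhoj 0.76 and Pls3 0.55. Iars, a tRNA synthetase gene, and Atf5, a stress-response factor, stood at 16.9 and 36.9 CPM (1.13) and 8.22 and 18.2 CPM (1.15). Myc, a growth regulator, stood at 7.53 and 15.4 CPM (1.03), and Elovl5, a fatty acid elongase, at 9.36 and 19.4 CPM (1.05). Rhoj, a small GTPase gene, Sfxn2, Rab34, Pls3, Gpx3, a secreted peroxidase, and Slc9a3r2 gave ratios of 1.35, 1.25, 1.24, 1.20, 1.17 and 1.08. In the comparison macrophages Rhoj, Sfxn2, Rab34, Slc9a3r2, Elovl5 and Myc had ratios below 0, with counting intervals that include 0. These genes were picked by their ratios in the resident macrophages, which favours such a contrast.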

How the data were processed

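Immune cells (CD45+) of mouse hearts were measured by droplet single-cell RNA sequencing (Chromium 3' v3) in 2 libraries, 1 per group. The authors deposited counts of unique molecular identifiers (UMIs), with 32285 features in the rows and cells in the columns; per the file headers the values come from Cell Ranger 5.0.0, and per the submitters' processing notes the build is mm10. Which annotation was used for counting is not given here. Positions of genes were read from GENCODE vM21, and promoters from RefSeq (GRCm38.p6).

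Cells needed 200 genes and at most 20% mitochondrial UMIs. Counts of the selected cells were summed per library and divided by their total to give counts per 1000000 (CPM). A ratio divides the splenectomy by the sham value and has an exact 95% interval for Poisson counts; a count of 0 was set to 3. No test between groups was run, because each group holds 1 library. Genes past 2-fold needed 50 counts in the higher library and list genes needed 20. Doublets were left in, and an alternative removed the highest Scrublet scores (302 and 200 cells, of which 7 and 4 were among the selected cells). The comparison cells passed the same limits: macrophages with 5 or more C1q UMIs and 0 UMIs of the 4 selecting genes, monocytes with 5 or more UMIs of Ly6c2, Ccr2, Chil3 and Plac8 and fewer than 5 of C1q, and B cells with 3 or more over 4 B cell genes, among them Cd79a, Cd79b and Ms4a1.

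The cells and all gene lists were chosen with earlier results of these data known. Named genes are the 12 highest and 12 lowest ratios (50 counts and 10% of cells in the higher library, 1.5-fold, the same direction with every cell weighted equally, at most 20% of counts in 1 cell), the 20 genes highest over C1q macrophages without the selecting genes (100 counts and 20% of cells in both libraries), the 3 highest and 3 lowest of each list, and a set of fixed genes. Mitochondrial, ribosomal, haemoglobin and predicted genes were left out of the first 2 rules. The steps were tested on simulated data. Results for some genes are not reported here. Of 17 other settings tried, 3 were chosen after seeing the data. Tools were scanpy 1.11.5, scipy 1.17.1, numpy 2.4.6 and pandas 2.3.3 under python 3.11.15, with matplotlib 3.10.9.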

Additional observations from a re-analysis of the deposited data

Results flagged for a closer look

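For 10 genes named above, counting intervals lay on opposite sides of 0 in the resident macrophages and in the C1q macrophages without the selecting genes, as log2 ratios of splenectomy over sham surgery. The difference between the cell classes was not tested, since each group holds 1 library. Ccl8 gave -0.43 against 2.17 in the other macrophages, Arg1 -0.23 against 0.78, and Thbs1 -0.37 against 0.51. Vegfa gave -0.48 against 0.22, Id2 -0.45 against 0.28, and Bnip3 -0.53 against 0.47. In the other direction Vsig4 gave 0.23 against -2.53, on very few counts in the other macrophages, Cx3cr1 0.43 against -0.79, Hspa1a 0.47 against -0.18, and Jund 0.29 against -0.11. Arg1, Thbs1, Vsig4, Vegfa and Cx3cr1 changed sign within the resident macrophages under another choice of the cells, and Ccl8 gave 1.21 in those with 10 to 19 UMIs of the selecting genes.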

How the results depend on the processing

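Of 289 list medians under 17 alternatives, 278 moved by less than their tolerance, 9 moved and 2 reversed. Of 1800 ratios of 120 named genes under 15 alternatives, 1516 stayed within their counting interval, 259 moved and 25 reversed. The interferon-stimulated list ranged from -1.15 to -0.82 and the class II list from -0.68 to -0.41. The causes of the changes below were not tested.

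The share of kept cells was 5.60% and 5.81% with 3 or more UMIs of the selecting genes, 2.79% and 3.66% with 10 or more, and 3.40% and 3.89% when cells were thinned to 4000 UMIs first. With 10 or more UMIs the class II median was -0.68. Thinned first, the resident programme median was -0.15, and without the 5 cells richest in division UMIs of each library the division median was 0.23, from 0.85 over 35 genes. Genes past 2-fold were 151 higher and 127 lower at 20 counts, and 1590 and 1322 with no count filter.

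Reversed values were, thinned first (123 and 133 cells), the recruited list at 0.86, Ccr2 1.55, Arg1 1.35, Thbs1 1.91, Vegfa 1.11, Apoc2 0.82, Ereg -0.27, Vsig4 -0.24, Cx3cr1 -0.24, Fxyd2 -0.19, Fcgrt -0.14 and Hmox1 -0.023. Ereg was counted by its sign, but its value equals that of Plac8 in this setting and is not read as a change of direction. With 20 or more UMIs they were the recruited list at 0.24, Ccr2 0.31, Arg1 0.23, Thbs1 0.17, Cx3cr1 -0.38, Hmox1 -0.24, Fcgrt -0.10, Vsig4 -0.082, Fxyd2 -0.063 and Cbr2, a selecting gene whose level the choice itself sets, -0.026. Spp1 gave -0.068 with 3 or more UMIs and -0.39 without cells holding markers of other types, and Fcgrt -0.035 with 10 or more UMIs. With every cell weighted equally Fxyd2 gave -0.10 and Vsig4 -2.2e-05.

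Each group is 1 library, so differences between animals, preparations and groups cannot be told apart. Cells near the threshold hold few UMIs of the selecting genes, and the list counts leave out genes under 20 counts.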
